A study of Homo sapiens with 6 samples.

Results

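The genes described here are 10 genes of the human selenoprotein system that lie outside the glutathione peroxidase (GPX) and thioredoxin reductase (TXNRD) families, out of 23686 genes counted. They were chosen by name: SEPW1, SELT, SELK, SELM, SELO, SEPN1, SEP15, SEPP1, SEPHS1 and SEPHS2, which are the older symbols in the files (SELENOW, SELENOT and so on are the current ones, and SEP15 is SELENOF, SEPN1 SELENON and SEPP1 SELENOP). All 10 had enough reads to be tested. Some other selenoprotein genes outside the GPX and TXNRD families, such as C11orf31 and DIO2, are in a separate list below. Members and lists were chosen with earlier results of these data known. RNA came from HEK293, an established human embryonic kidney line, and the sampled cells were those sorted for green fluorescent protein (GFP). The co-culture group is 3 samples of GFP-positive cells grown for 10 h with other HEK293 cells holding DAAO, usually short for D-amino acid oxidase, and producing reactive oxygen species (ROS). The control group, titled Wt, is 3 samples of GFP-positive cells sorted in the same way. All 6 labels carry the same treatment text with 25 µM D-alanine, so whether the controls received D-alanine or had partner cells is not given in the sources used here. The labels do not say whether the cells are 1 clone, or whether the samples of a group came from separate cultures. The p-values therefore weigh the difference between the groups against the spread between these samples, which may be technical. The comparison asks how ROS-producing neighbours alter the RNA levels of these genes in the GFP-positive cells.

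Selenoproteins contain selenocysteine, an amino acid with selenium in place of the sulfur of cysteine. It is inserted at an in-frame UGA codon that would otherwise end translation, with the help of a hairpin in the messenger RNA, a binding protein, a dedicated elongation factor and a dedicated tRNA. Selenophosphate synthetase supplies the activated selenium. Most members of the family with known activity carry out redox reactions, and several sit in the endoplasmic reticulum (ER).

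The coding feature that these genes share is the in-frame TGA, the DNA form of UGA, and its place is shown here because it separates the members. In GENCODE release 29 (GRCh38), 9 of the 10 genes had an annotated selenocysteine codon and SEPHS1 had none. The lines below give the first annotated TGA of each gene, the last one of SEPN1 and SEPP1, and the SEPHS1 codon aligned to the TGA of SEPHS2. They read 5′ to 3′ on the coding strand, and the capitals mark the TGA or the aligned codon. For SELK, SELO and the last TGA of SEPP1 the line ends with the stop codon. The line for the last TGA of SEPP1 also holds, in lower case, the annotated TGA at codon 376.
SEPW1: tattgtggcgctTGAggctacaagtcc
SELT: atttgtgtttccTGAggttataggcgg
SELM: acctgcgggggaTGAcagctgaaccgc
SEP15: gaagtttgtggaTGAaaattgggaagg
SELK: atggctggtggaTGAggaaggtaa
SELO: ctgtgcgtgacaTGAtcttcgtaa
SEPN1 first: ccctggctcaatTGAtcctcctgcctc
SEPN1 last: gaccagtcctgcTGAggttcagggcgg
SEPP1 first: cttcaagccagcTGAtacctgtgcata
SEPP1 last: aaaaagtgagaaTGAccttcaaactaa
SEPHS2: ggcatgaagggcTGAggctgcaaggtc
SEPHS1: gaactgaagggcACAggctgcaaagtg

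On GRCh38 the capitals lie at chr19:47780732-47780734 for SEPW1, chr3:150622392-150622394 for SELT and chr22:50217358-50217360 for SELO, all on the plus strand. They lie on the minus strand at chr22:31105951-31105953 for SELM, chr1:86880690-86880692 for SEP15 and chr3:53885831-53885833 for SELK. The SEPN1 codons are at chr1:25802093-25802095 and chr1:25812789-25812791 on the plus strand. Those of SEPP1 are at chr5:42808177-42808179 and chr5:42800732-42800734 on the minus strand. The SEPHS2 codon is at chr16:30445548-30445550 and the aligned SEPHS1 codon at chr10:13344864-13344866, both on the minus strand. All of these positions are in coding exons.

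The TGA was early in the coding sequence of SEPW1 (codon 13 of 87), SELT (codon 49 of 195), SELM (codon 48 of 145) and SEPHS2 (codon 60 of 448). It was the third codon from the end in SELK (codon 92 of 94) and in SELO (codon 667 of 669). SEP15 had it at codon 96 of 165, and SEPN1 had 2 in the transcript used, at codons 127 and 462 of 590. Among transcripts that GENCODE marks as principal, the one with the most annotated selenocysteine codons was used. Other transcripts of a gene may therefore hold fewer, and which transcript these cells use was not tested. SEPP1 stood apart with 10, the first at codon 59 and the other 9 between codons 300 and 378 of 381. A TGT or TGC codon, which stands for cysteine, lay 3 codons before the first TGA in 4 of the 9 genes (SEPW1, SELT, SELM and SELO), and 2 codons before it in SEP15. The coding sequences of SEPHS2 and SEPHS1 were identical at 69.6% of 1173 aligned bases, and SEPHS1 carried ACA where they were aligned at the TGA.

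**Figure D1:**
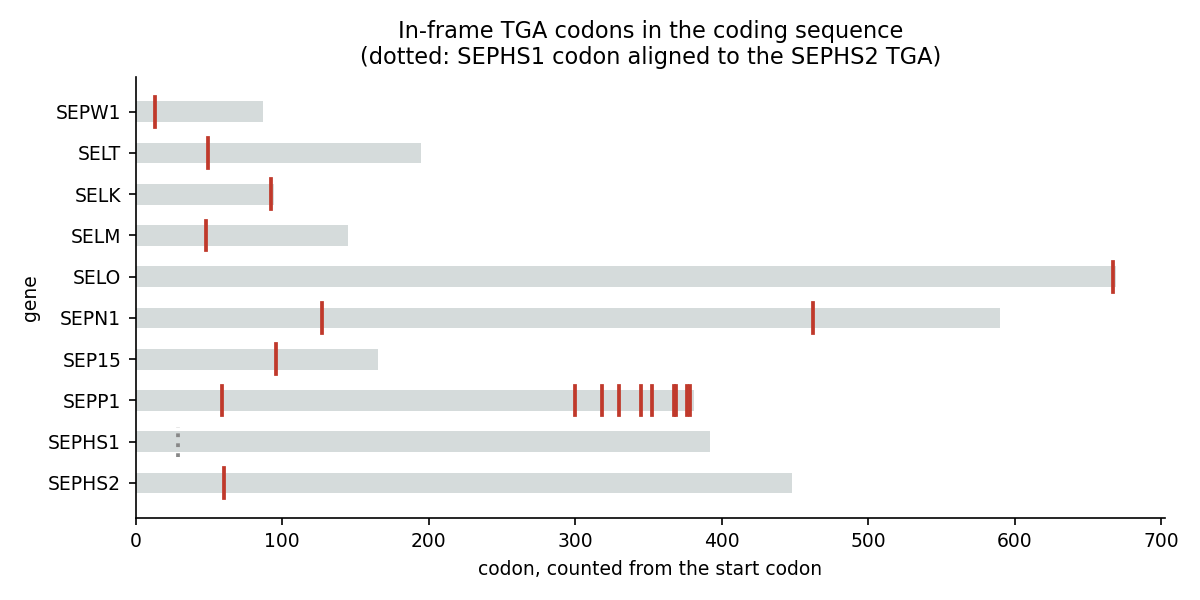
Coding sequences of the 10 genes, from 1 transcript each, drawn to scale as grey bars, with codons counted from the start codon on the x axis and 1 gene per row. Solid ticks are annotated selenocysteine codons and the dotted tick is the SEPHS1 codon aligned to the TGA of SEPHS2. SEPP1 carries 10 ticks, SEPN1 carries 2, and the ticks of SELK and SELO sit at the end of their bars.

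A TGA well ahead of the last exon junction can be read as a premature stop when selenium is short, and some selenoprotein messages are degraded by that route. In the transcripts used, the distance from the first TGA to the last junction was 1221 bases in SEPN1, 470 in SELT, 357 in SEPP1, 243 in SEPW1, 135 in SELM, 78 in SEP15 and 5 in SELK. It depends on the transcript, as the first TGA of SEPN1 need not be in every transcript. In SELO the TGA lay in the last exon, and SEPHS2 had 1 exon only. Whether this distance goes with the fold change of the members was not tested.

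The libraries held 19091085 to 36250314 reads assigned to genes on the reverse strand. By these totals alone, 1 read was worth 0.0276 to 0.0524 CPM (a count scaled to a common library total). The other CPM given here are also scaled with trimmed means of M-values, so the worth of 1 read differs slightly. The members had between 115 and 8855 reads per library. Among 5032 well-covered genes the forward strand, which the kit should leave almost empty, held a median of 0.127% and 0.216% of reads in co-culture libraries 2 and 3 and between 1.59% and 1.79% in the other 4 libraries. This class of low forward-strand reads holds co-culture libraries only, so a model with this class compares co-culture library 1 with the controls. All 7 HEK293 markers were detected in every library. Their summed level was 1761 to 1828 CPM in the controls and 2131 to 2348 CPM in co-culture, with vimentin (VIM) the highest, and their part in the results on the members was not tested. All 6 hepatocyte markers, from the cell type that makes most circulating selenoprotein P, were under 1 CPM in every library. Their sum was 0.230 to 0.809 CPM in the controls and 0.335 to 0.523 CPM in co-culture. Of 6 fibroblast and 5 blood cell markers, 3 and 4 were under 1 CPM throughout, and TTR, SERPINA1, CD3E and HBB had no reads. The fibroblast sums were 44.8 to 59.8 CPM in controls and 49.2 to 53.6 CPM in co-culture, mostly COL1A1. In that list LUM was 9.35 to 11.6 CPM in controls and 5.90 to 7.65 CPM in co-culture. COL3A1 was 3.45 to 9.30 and 2.23 to 3.30 CPM, so that both were lower in every co-culture library. COL1A1 did not fall with them. It was 39.2 to 44.4 CPM in co-culture, with control 1 inside that range at 40.2 CPM and controls 2 and 3 below it. The part of LUM, COL3A1 and COL1A1 in the results on the members was not tested. The blood sums, nearly all CD68, were 7.71 to 10.6 and 10.4 to 11.4 CPM. In RNA from whole samples, fewer cells with a message and less message per cell cannot be told apart.

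No member passed the test in the comparison of co-culture with control. By the quasi-likelihood test of edgeR, with Benjamini-Hochberg adjustment over all 14582 tested genes, 0 of the 10 members had an adjusted p under 0.05, against 4.83% of all genes (2.66% higher and 2.17% lower in co-culture). The same count was 1 of 10 in DESeq2 (SEPP1), where 7.31% of genes were called, and 0 of 10 in limma-voom, where 4.43% were. At an unadjusted p under 0.05 there were 4 of 10 members (SEPP1, SEPHS2 and SELT lower, SEPN1 higher), against 23.2% of all genes. The fold changes were mostly of 1 sign: 9 of 10 log2 fold changes were negative, with a median of -0.15 and a range from -0.25 to 0.17. Of the 14582 tested genes 7353 were negative, and the median over all tested genes was -0.0022. Without regard to sign, the median size of the log2 fold change was 0.167 in the members and 0.127 in all tested genes. The groups did not overlap for 2 of 10 members, SEPP1 and SEPHS2, against 29.3% of all genes. Both were lower in co-culture, a pattern found in 15% of all genes, with 14.3% apart in the other direction. Summed over the 10 members, the level was 995, 1005 and 1026 CPM in co-culture libraries 1, 2 and 3 and 1054, 1062 and 1046 CPM in controls 1, 2 and 3.

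**Figure D2:**
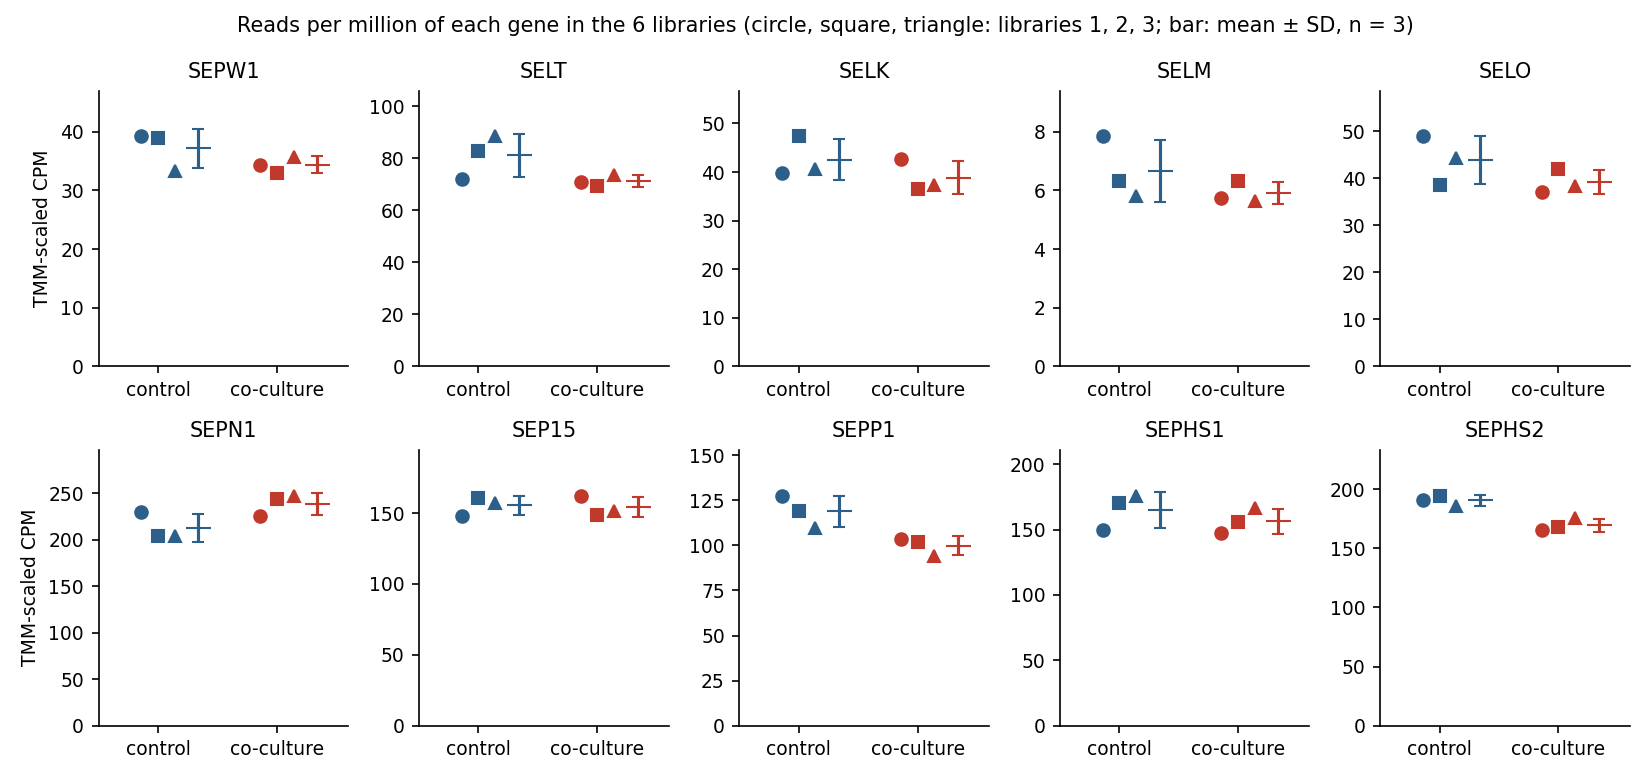
CPM of each gene, scaled with trimmed means of M-values, in the 3 control (blue) and 3 co-culture (red) libraries, each panel with its own y axis from 0. Circle, square and triangle are libraries 1, 2 and 3 and bars are the mean ± SD. The groups are apart for SEPP1 and SEPHS2 and overlap in the other 8 panels.

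SEPP1 encodes selenoprotein P, the secreted protein that carries selenium between tissues and the one with many selenocysteines. Its level was 128, 119 and 110 CPM in controls 1, 2 and 3 and 104, 102 and 94.2 CPM in co-culture libraries 1, 2 and 3. Every co-culture library was below every control, and the gap between the nearest 2 libraries was smaller than the spread within the controls. The means were 119 ± 8.85 CPM in control and 99.9 ± 5.05 CPM in co-culture (SD, n = 3 each). This is a log2 fold change of -0.25 with an SE of 0.07 (edgeR adjusted p 0.0625), or a change of -15.9%. It had the smallest unadjusted p of the 10 members (0.00402, rank 938 of 14582 genes). The adjusted p was under 0.05 in 4 of 17 other settings: with total counts as the scale (-0.28, edgeR adjusted p 0.0459), in DESeq2 (-0.25, adjusted p 0.0390), without control 1 (-0.20, edgeR adjusted p 0.0198) and without control 3 (-0.30, edgeR adjusted p 0.0280). Over the 17 settings it ran from 0.0198 to 0.487, the highest with the strand class in the model (-0.20), and the log2 fold change was negative in all 17.

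The SEPP1 counts depend on the strand setting, because CCDC152, a coding gene on the opposite strand, overlaps it in GENCODE 29. Counted without regard to strand, SEPP1 kept only 25.8% to 28.9% of its reverse-strand reads. A gene's own reads fall in the reverse-strand column with this kit, and there CCDC152 held 3 to 15 reads per library. Its 1498 to 2475 reads per library in the forward-strand column lie on the strand of SEPP1. In co-culture library 1 these numbered 1498, where SEPP1 held 2073 reverse-strand reads and 596 unstranded reads. The log2 fold change of SEPP1 from the unstranded counts was -0.24 (edgeR adjusted p 0.106; 0.0198 to 0.487 over the 17 settings).

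The synthetases SEPHS1 and SEPHS2 are relatives, of which SEPHS2 makes selenophosphate and is itself a selenoprotein. SEPHS2 stood at 191, 194 and 186 CPM in controls 1, 2 and 3 and at 165, 168 and 176 CPM in co-culture libraries 1, 2 and 3. The groups did not overlap, with co-culture lower. The means were 190.4 ± 4.26 and 169.6 ± 5.55 CPM (SD, n = 3 each), with a log2 fold change of -0.17 with an SE of 0.06 (edgeR adjusted p 0.112). The adjusted p was under 0.05 in 1 of 17 other settings, without control 1 (-0.16, edgeR adjusted p 0.0304; 0.0304 to 0.383 over the settings). SEPHS1, without the selenocysteine codon, stood at 150, 170 and 176 CPM in the controls and at 147, 156 and 167 CPM in co-culture. These ranges overlapped, and its log2 fold change was -0.08 (95% interval -0.24 to 0.09, edgeR adjusted p 0.566). With 1 library left out it ran from -0.03 without control 3 to -0.14 without control 1. The difference between the 2 synthetases in their fold change was not tested. GENCODE 29 names 4 pseudogenes after SEPHS1 and 1 after SEPHS2, and reads that fit a gene and its copy equally well are not counted by STAR, so their levels may be too low.

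SEPW1, SELT, SELM and SEP15 encode small proteins with a thioredoxin-like fold, of which SELT, SELM and SEP15 are in the ER. SELT had the lowest p of these. It stood at 72.1, 82.9 and 88.3 CPM in controls 1, 2 and 3 and at 71.0, 69.3 and 73.5 CPM in co-culture libraries 1, 2 and 3. Control 1 lay inside the co-culture range and controls 2 and 3 above it. The log2 fold change was -0.19 with an SE of 0.08 (edgeR adjusted p 0.175), and without control 1 it was -0.26 (edgeR adjusted p 0.00334; 0.00334 to 0.543 over the 17 settings), and without control 3 it was -0.12. GENCODE 29 names 2 pseudogenes after SELT and 1 after SEPW1. SEPW1, whose protein is abundant in muscle, ranged from 33.3 to 39.2 CPM in the controls and from 32.9 to 35.8 CPM in co-culture, and its log2 fold change was -0.11 (95% interval -0.29 to 0.07), or -0.07 without control 1 and -0.18 without control 3. SELM, a lumenal ER protein, ranged from 5.79 to 7.83 and from 5.64 to 6.32 CPM, and its log2 fold change was -0.17, or -0.04 without control 1 and -0.26 without control 3. It was the least counted member, with 115 to 202 reads per library, and had the widest 95% interval, from -0.51 to 0.17. SEP15, which binds the folding sensors UGGT1 and UGGT2, was the member with the fold change nearest 0. Its range was 148 to 161 CPM in the controls and 149 to 162 CPM in co-culture, and its log2 fold change was -0.011 (95% interval -0.15 to 0.12, edgeR adjusted p 0.934).

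SELK and SEPN1 are membrane proteins of the ER. SELK takes part in ER-associated degradation and in protein palmitoylation, and SEPN1 acts on ER calcium handling and is mutated in a congenital myopathy. SEPN1 was the 1 member with a positive log2 fold change. It stood at 230.3, 204 and 204 CPM in controls 1, 2 and 3 and at 225, 244 and 247 CPM in co-culture libraries 1, 2 and 3. Control 1 was above co-culture library 1, so the groups overlapped by 1 library. The log2 fold change was 0.17 with an SE of 0.07 (edgeR adjusted p 0.176), or 0.23 without control 1 (edgeR adjusted p 0.00624; 0.00624 to 0.772 over the 17 settings), and 0.08 with the strand class in the model. In GENCODE 29 a coding gene on the same strand, AL020996.2, overlaps SEPN1. SELK ranged from 39.8 to 47.3 CPM in the controls and from 36.5 to 42.7 CPM in co-culture. Its log2 fold change was -0.13 (95% interval -0.33 to 0.06), or -0.20 without co-culture library 1 and -0.05 without control 2, and with the strand class in the model it was 0.0068. Forward-strand reads made up 4.17% to 7.30% of the reads over SELK in the controls and 3.61% in co-culture library 1. In co-culture libraries 2 and 3 they made up 0.259% and 0.224%, and their part in the change of sign was not tested. GENCODE 29 names 3 pseudogenes after SELK.

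SELO, a mitochondrial enzyme that transfers AMP onto other proteins, ranged from 38.7 to 48.9 CPM in the controls and from 37.2 to 42.1 CPM in co-culture. Its log2 fold change was -0.17 (95% interval -0.37 to 0.03, edgeR adjusted p 0.296), or -0.09 without control 1. Forward-strand reads made up 3.87% to 7.51% of the reads over SELO, where 2 antisense genes are annotated.

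The count of called members depended most on control 1. Without it 4 of 10 members had an edgeR adjusted p under 0.05 (SELT, SEPP1 and SEPHS2 lower, SEPN1 higher), in a fit where 20.8% of all genes were called. Without control 3 the count was 1 of 10 (SEPP1), with 5.0% of all genes called, and with total counts it was 1 of 10 (SEPP1), with 6.05% called. It was 0 of 10 in each of the other 4 fits that left out a library, in which 0.831%, 0.503% and 2.18% of all genes were called without co-culture libraries 1, 2 and 3 and 0.440% without control 2. It was also 0 of 10 with the replicate block (1.12% of all genes called) and with the strand class in the model (0.199% called). The same 0 of 10 came from the other scalings and filters: relative log expression (4.86% called), upper quartile (5.29%), no filter (4.50%), a minimum count of 50 (5.84%), counts without regard to strand (4.46%) and a fit that was not robust (4.69%). The negative sign of SEPW1, SELT, SELM, SELO, SEPP1, SEPHS1 and SEPHS2 and the positive sign of SEPN1 held in all 17 settings, while SELK changed sign in 1 and SEP15 in 4.

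**Figure D3:**
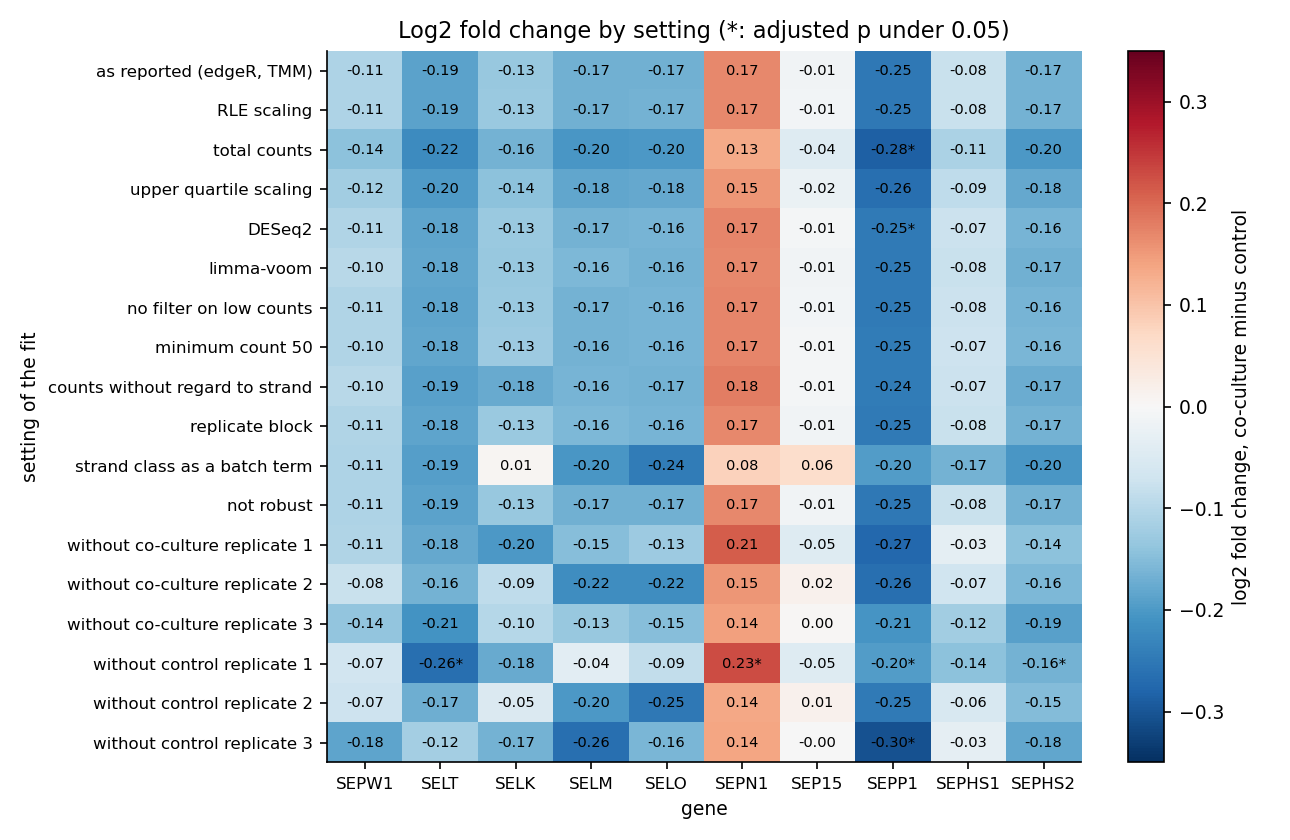
Log2 fold change, co-culture minus control, of each gene (columns) in the fit reported here and in 17 other settings (rows), with red for positive, blue for negative and an asterisk for an adjusted p under 0.05. The row without control 1 holds 4 asterisks, SEPP1 holds 4 in its column, and the SEP15 column is nearest to 0.

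Levels can be set side by side only per length, here as CPM per kilobase of the exons of protein-coding transcripts in GENCODE 29, an annotation that is not known to be the authors'. SEP15 was the most abundant member at 82.3 ± 3.31 CPM per kilobase (SD over 6 libraries), followed by SEPHS2 at 70.6 ± 4.79. The range of each over the 6 libraries lay above that of the next gene. SEPN1 (52.0 ± 4.32), SEPHS1 (49.1 ± 3.55) and SEPP1 (40.1 ± 4.47) followed with ranges that overlapped from neighbour to neighbour, and the range of SEPP1 also overlapped that of SEPW1 (33.4 ± 2.59), although SEPP1 was the higher of the 2 within each library. SELK (24.9 ± 2.41) was below SEPW1 in every library and above SELT (18.9 ± 1.89), which overlapped SELO (18.0 ± 1.93). SELM was last at 5.76 ± 0.750, below SELO in every library. With the length of 1 transcript per gene the order was the same, and SELK and SELT then overlapped. GENCODE 29 names pseudogenes after SEPHS1, SELK, SELT, SEPW1 and SEPHS2 and none after the other members. Reads that fit a gene and its copy equally well are not counted, so the genes with pseudogenes may stand too low in this order.

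**Figure D4:**
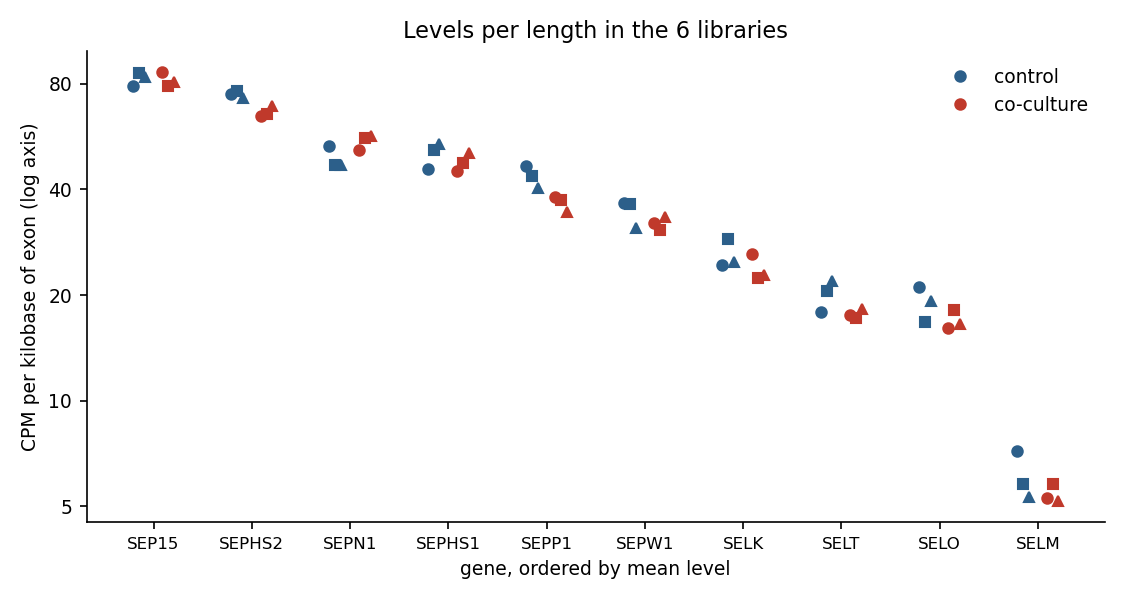
CPM per kilobase of exon on a log axis for each gene, ordered by its mean level, with control libraries in blue and co-culture libraries in red (circle, square and triangle for libraries 1, 2 and 3). SEP15 is highest at 82.3 and SELM lowest at 5.76 CPM per kilobase on average.

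Other genes of the pathway were read from lists of related function. The closest list holds the selenoprotein genes that are not members, 12 of 16 of which were tested. Of these 12, 0 were higher and 2 were lower at an edgeR adjusted p under 0.05, against 2.66% higher and 2.17% lower among all tested genes, and the median log2 fold change was -0.12, with 8 of 12 negative. TXNRD2, the mitochondrial thioredoxin reductase, fell from 32.0, 33.4 and 33.1 CPM in controls 1, 2 and 3 to 21.8, 20.9 and 24.8 CPM in co-culture libraries 1, 2 and 3. The groups were well apart, and the log2 fold change was -0.54 with an SE of 0.08 (edgeR adjusted p 0.00669). C11orf31, now SELENOH, a nucleolar selenoprotein that shares the thioredoxin-like fold of SEPW1, SELT and SELM, fell from 51.0, 55.3 and 51.4 CPM to 40.3, 39.0 and 41.5 CPM. Its log2 fold change was -0.38 with an SE of 0.07 (edgeR adjusted p 0.0118), and 2 coding genes on the same strand, of which TMX2-CTNND1 is a read-through, overlap it in GENCODE 29.

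These 2 calls held in part of the settings. TXNRD2 lost its call without co-culture library 1 (-0.51), without co-culture library 2 (-0.49), without control 2 (-0.53) and with the strand class in the model (-0.59), with adjusted p-values over the 17 settings from 4.24e-05 in DESeq2 to 0.159 in edgeR with that class. The lowest in edgeR was 0.000185, without control 1. C11orf31 lost it in the same 4 settings (-0.38, -0.36, -0.35 and -0.38) and with the replicate block (-0.38, edgeR adjusted p 0.0642), with edgeR adjusted p-values from 0.000355 to 0.228. DIO2, an iodothyronine deiodinase that activates thyroid hormone, was barely detected, at 0.466 ± 0.242 and 0.604 ± 0.036 CPM (SD, n = 3 each), and its log2 fold change was 0.33 with an SE of 0.40, or 0.04 without control 1 and 0.86 without control 3.

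The uptake list of 5 genes holds the receptors LRP8 and LRP2 and also genes that are not receptors, such as the enzyme CTH. Of its genes 4 were tested, of which 1 was higher and 0 were lower (2.66% and 2.17% of all tested genes), with a median log2 fold change of -0.11. LRP8, a receptor that takes up selenoprotein P in brain and testis and also binds reelin, rose from 46.9, 43.9 and 40.6 CPM in controls 1, 2 and 3 to 65.6, 66.2 and 65.3 CPM in co-culture libraries 1, 2 and 3. The co-culture libraries lay close together and all above the controls, with a log2 fold change of 0.59 with an SE of 0.07 (edgeR adjusted p 0.00173). It stayed at an adjusted p under 0.05 in 16 of 17 settings, and with the strand class in the model it was 0.59 (edgeR adjusted p 0.0835, the highest over the settings). The lowest adjusted p for LRP8 was 2.38e-06 in edgeR, without control 1, and 2.39e-09 in DESeq2. LRP2, the receptor that retrieves selenoprotein P in the kidney, had a log2 fold change of -0.18 (edgeR adjusted p 0.146). CTH, an enzyme of the transsulfuration pathway, had one of -0.15 (edgeR adjusted p 0.499), or -0.05 without control 1 and -0.25 without control 3.

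**Figure D5:**
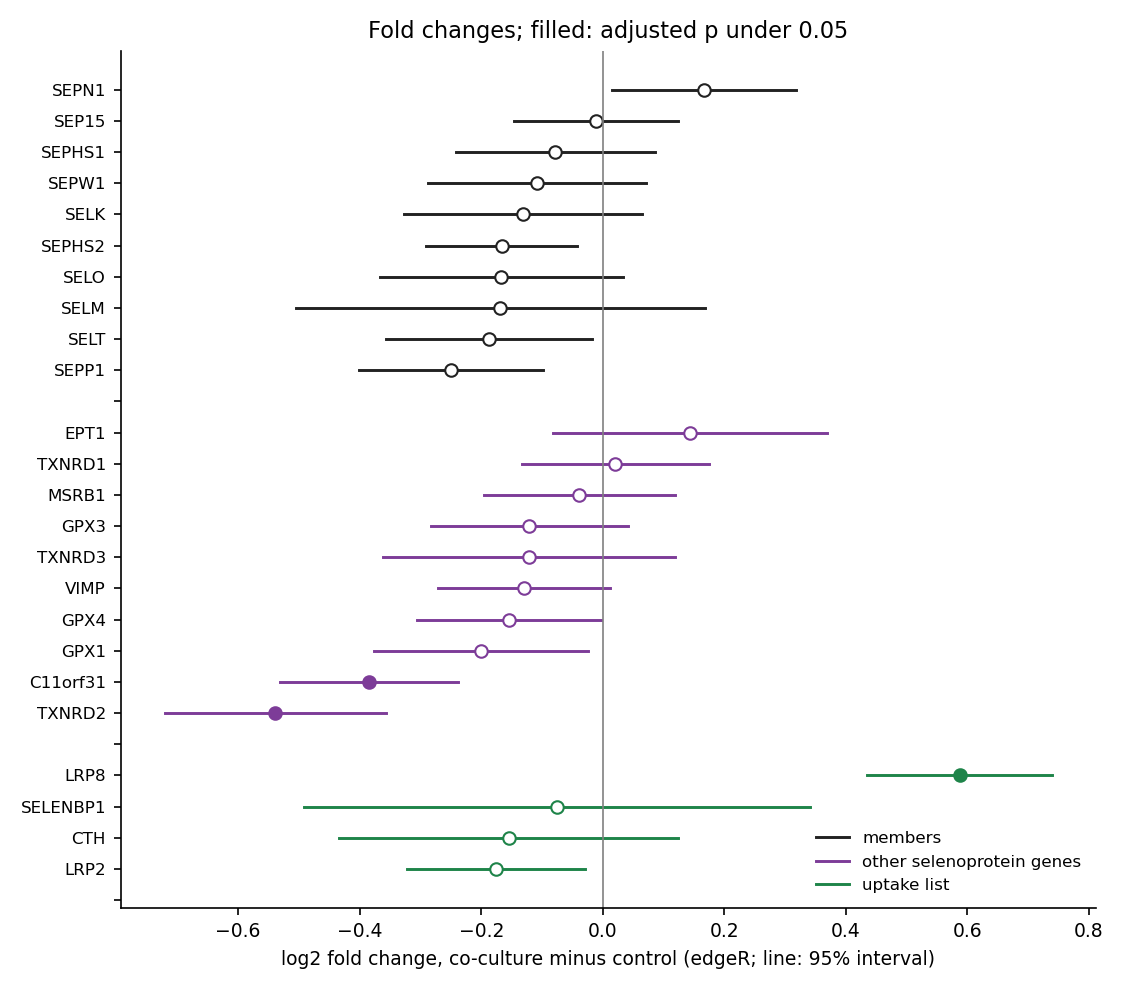
Log2 fold change, co-culture minus control, with its 95% interval for the 10 members (black), the other selenoprotein genes (purple) and the uptake list (green), where filled points have an edgeR adjusted p under 0.05. DIO2 and SELV, both under 1.5 CPM, are left out. TXNRD2, C11orf31 and LRP8 are filled and no member is.

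Of 13 genes linked to the making or insertion of selenocysteine, 12 were tested and 0 passed in either direction, against 4.83% of all tested genes. The 12 had a median log2 fold change of 0.03, with 7 of 12 positive. PSTK, the kinase that acts on the seryl-tRNA, had a log2 fold change of -0.41 with an SE of 0.15 (edgeR adjusted p 0.128). EEFSEC, the dedicated elongation factor, had one of -0.26 with an SE of 0.10 (edgeR adjusted p 0.137). SEPSECS, the enzyme that uses selenophosphate to finish selenocysteine on its tRNA, had one of 0.24 with an SE of 0.10 (edgeR adjusted p 0.190). At an unadjusted p under 0.05 there were 3 lower and 1 higher of the 12, against 23.2% of all genes in either direction. PSTK passed in 1 of 17 settings, without control 1 (-0.49, edgeR adjusted p 0.0148; 0.0148 to 0.559 over the settings).

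None of the 9 ER partners of these proteins passed edgeR's test in either direction, against 4.83% of all tested genes. At an unadjusted p under 0.05 there were 0 of 9, against 23.2% of all tested genes. The median log2 fold change of the 9 partners was -0.01. UGGT1 and UGGT2, the partners of SEP15, were at 0.15 and 0.14 on the log2 scale (edgeR adjusted p 0.243 and 0.313). DERL1, DERL2 and VCP, which work with SELK in ER-associated degradation, had -0.12, -0.016 and -0.03, and SYVN1, the ubiquitin ligase of that route, had -0.14. The calcium pump ATP2A2, a partner of SEPN1, had 0.0085. Of the 5 tested cysteine relatives, 0 passed in either direction, against 4.83% of all tested genes. The median log2 fold change of the 5 relatives was -0.05. MSRA, a methionine sulfoxide reductase, had a log2 fold change of -0.50 with an SE of 0.17 (edgeR adjusted p 0.103), GPX8, a peroxidase of the ER, had 0.14 and MIEN1 had -0.06. Without control 1, MSRA (-0.51) and GPX8 (0.19) passed at edgeR adjusted p-values of 0.0337 and 0.0422, with ranges over the 17 settings from 0.0337 to 0.572 and from 0.0422 to 0.554.

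The genes most like SEPP1 and SEPN1 were found by the root mean square difference of log2 CPM over the 6 libraries, each gene centred on its mean, among 11646 other genes with at least 5 CPM. For SEPP1, the member with the smallest p, they were PRRG4 (0.024), MRP63 (0.026) and ST3GAL6 (0.030), where the median gene was at 0.180. Their log2 fold changes were -0.23, -0.23 and -0.23, and none passed edgeR's threshold (adjusted p 0.0925, 0.105 and 0.215). For SEPN1, the member with the highest mean CPM, they were TP53I13 (0.017), EML3 (0.018) and CYTH1 (0.023), with the median gene at 0.161. Their log2 fold changes were 0.14, 0.15 and 0.14 (edgeR adjusted p 0.308, 0.277 and 0.278). Fold changes close to those of SEPP1 and SEPN1 follow from the way these genes were chosen, since the measure includes the difference between the groups. Without control 1, TP53I13 (0.21) and CYTH1 (0.20) passed at edgeR adjusted p-values of 0.0491 and 0.0325, with ranges over the 17 settings from 0.0491 to 0.897 and from 0.0325 to 0.901.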

How the data were processed

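The authors deposited raw counts of reads per gene, 1 file per sample, in the layout of STAR's gene counting. Per the submitters' processing notes, FastQC, STAR 2.53a and the build hg18 were used. The gene annotation is not given in the sources used here. Per the labels' protocols, TriPure was used for RNA and a stranded mRNA kit for the libraries. The reverse-strand column was used, and the summary lines were left out.

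Groups and replicate numbers came from the titles. The fit used edgeR 4.0.16 in R 4.3.3: a filter at a minimum count of 10, which kept 14582 genes, trimmed means of M-values, robust quasi-likelihood fits with group as the only term, and Benjamini-Hochberg adjustment over all tested genes at 0.05. Each standard error is the size of the log2 fold change over the root of its F statistic. CPM are scaled by the same factors. Simulated 2-fold changes were called in 99.5% of 200 genes (14491 genes tested). Genes without a change made up 9.55% of the 220 calls, more than the adjustment at 0.05 aims for. The simulation changed only genes above 5 CPM, and only by 2-fold. It does not show how often changes as small as those of the members, -0.25 to 0.17 on the log2 scale, would be called. Alternatives used DESeq2 1.42.0 and limma 3.58.1, other scalings, filters and strand columns, a replicate block, a strand-class term and the loss of each library. Library pairs within a group differed by more than sampling noise (chi-square per degree of freedom 4.56 to 17.7).

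The members and lists were chosen with earlier results of these data known. Named genes are the members, genes past the threshold and the 3 largest changes of each list, partners of members, and the genes most like SEPP1 and SEPN1. Codon positions and lengths come from GENCODE 29 on GRCh38, not the build of the counts.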

Additional observations from a re-analysis of the deposited data

How the results depend on the processing

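The median log2 fold change of the members was -0.15 and ran from -0.18 to -0.11 over 17 settings. The number of members past the threshold was 0 and became 1 with total counts and 1 in DESeq2, and it was between 0 and 4 when a library was left out. The count of all genes past the threshold was 704 and became 29 with the strand class in the model. It ran from 65 to 3069 in the fits that left out a library, lowest without control 2 and highest without control 1. The replicate numbers do not pair the samples by the labels, and deviations of same-numbered libraries correlated at -0.04, -0.09 and -0.09. With the replicate block 164 genes and 0 members passed. Signs changed for SELK, which stood at -0.13 in the fit reported here, and for genes nearer 0. With the strand class in the model SELK stood at 0.0068, SEP15 at 0.062, DERL2 at 0.042 and ATP2A2 at -0.0071. ATP2A2 also stood at -0.024 with total counts and at -0.0030 with upper quartile scaling. In the fits that left out a library SEP15 ran from -0.045 to 0.016, DERL2 from -0.057 to 0.021, VCP from -0.069 to 0.0068 and ATP2A2 from -0.029 to 0.032. The cause of these changes was not tested. SELM, with 115 to 202 reads per library, is the member whose change was measured least precisely. With total counts 310 of 882 calls were higher, against 388 of 704, and the median gene stood at -0.04 on the log2 scale.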
